A study of Rattus norvegicus with 15 samples.

Results

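Immediate early genes, stress-response genes and circadian clock genes were followed in the adrenal medulla of wildtype rats and of MENX rats at 2 stages of pheochromocytoma (PCC) development. The 68 genes (67 symbols, as *Nr3c1* has 2 gene models) were taken by symbol from the 8621 genes of the differential expression tables: members of the Fos and Jun families, *Egr4*, *Arc*, the Nr4a receptors, *Atf3*, *Maff*, dual specificity phosphatases, Krüppel-like factors, *Btg1*, *Cebpb*, Gadd45 and Zfp36 genes, Ppp1r15 and Trib genes, the kinases *Sik1* and *Nuak2*, glucocorticoid receptors and targets, and the clock genes. RNA-seq was done on 5 rats per group, 1 rat per sample, all of strain Sprague-Dawely in the spelling of the labels. The WT rats were wildtype and 7 to 9.5 months old. The HYP rats had the MENX genotype, a frameshift mutation in the cell cycle inhibitor gene *Cdkn1b*, and hyperplastic medulla at 4 to 5 months. The PCC rats had the same genotype and pheochromocytoma at 7 to 9.5 months. Therefore HYP and WT differed in age as well as in genotype, and PCC and HYP in age as well as in stage. The tissue was snap-frozen and macrodissected with the cortex removed, and the time of day of dissection was not given in the sources used here.

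The rule chose genes by name, but a gene is in a table only if the authors called it in that comparison, so each count below is set beside the share called among all genes of the same table. Of the 68 genes, the table of PCC vs. WT listed 59, that of HYP vs. WT listed 49 and that of PCC vs. HYP listed 20, with 12 in all 3 tables, 36 in 2 and 20 in 1. Values in all 15 rats existed for 48 of them. *Fos*, *Egr1*, *Arntl*, *Clock*, *Dbp*, *Nr1d1* and *Nr1d2* have symbols of the same patterns but no row among these 8621 genes, and were not analysed here.

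Immediate early genes are transcribed within minutes of a stimulus from factors that are already present in the cell, and their transcripts are short-lived. In chromaffin cells they answer splanchnic nerve input, depolarization, cAMP and growth factors. AP-1 factors and Nr4a orphan receptors bind the genes that follow. Some dual specificity phosphatases (DUSPs), such as Dusp1, switch MAP kinases off again, and proteins such as Zfp36 speed up mRNA decay. In the circadian clock, Arntl pairs with Clock or Npas2 on E-boxes and drives the Per, Cry, *Ciart* and *Bhlhe41* repressors and the PAR-bZIP factors Dbp, Tef and Hlf. The PAR-bZIP factors activate D-boxes, where Nfil3 represses. Adrenal glucocorticoids bind Nr3c1, and *Fkbp5*, *Tsc22d3*, *Sgk1* and *Per1* are among the genes it switches on.

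The promoter windows of the genes to which the results below return are shown first. RefSeq promoters (assembly GRCr8, 250 bases before to 50 after the start) were matched for 55 of the 67 symbols (62 promoters), and only bases before the start are printed. Capitals mark a CRE (TGACGTCA, bound by CREB), an E-box (CACGTG), a D-box (TTATGTAA), an AP-1 site (TGAGTCA, or TGACTCA read on the other strand) or a CArG box (bound by serum response factor). Both strands were searched.
*Ciart*, chr2:186112247-186112369, minus strand, 3 E-boxes: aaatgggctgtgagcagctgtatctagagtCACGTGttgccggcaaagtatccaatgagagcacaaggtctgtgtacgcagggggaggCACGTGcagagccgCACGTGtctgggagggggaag
*Bhlhe41*, chr4:180569368-180569433, minus strand, E-box: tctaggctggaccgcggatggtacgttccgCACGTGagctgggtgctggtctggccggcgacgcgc
*Tef*, chr7:115206599-115206664, plus strand, E-box: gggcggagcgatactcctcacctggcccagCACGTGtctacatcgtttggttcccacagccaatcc
*Per2*, chr9:99497148-99497215, minus strand, D-box: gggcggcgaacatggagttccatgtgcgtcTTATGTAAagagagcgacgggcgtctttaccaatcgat
*Dusp1*, chr10:17184699-17184781, plus strand, CRE and E-box: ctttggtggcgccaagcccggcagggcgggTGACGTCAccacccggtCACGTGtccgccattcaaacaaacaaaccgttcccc
*Ppp1r15a*, chr1:105139625-105139692, minus strand, CRE: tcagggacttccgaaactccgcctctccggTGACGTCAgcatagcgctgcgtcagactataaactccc
*Dusp14*, chr10:69452394-69452460, minus strand, AP-1 site: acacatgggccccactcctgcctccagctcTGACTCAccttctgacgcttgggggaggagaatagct
*Zfp36*, chr1:92799109-92799170, minus strand, CArG box: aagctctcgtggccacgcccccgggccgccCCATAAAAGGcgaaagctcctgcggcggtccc

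Of the 62 promoters, 10 had an E-box in the window (16.1%, against 5.59% of all 33469 promoters). Beside *Ciart*, *Bhlhe41*, *Tef* and *Dusp1*, these were *Dusp2*, *Gadd45b*, *Gadd45g*, *Klf11*, *Maff* and *Zfp365*. A CRE stood in 4, *Dusp1*, *Jund*, *Maff* and *Ppp1r15a* (6.45%, against 1.59%). A CArG box was found in *Dusp5* and *Zfp36* (3.23%, against 1.5%), a D-box in *Per2* (1.61%, against 0.828%) and an AP-1 site in *Dusp14* (1.61%, against 4.05%). These are matches of letters within the windows and were not tested for binding.

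Between 16315018 and 23831269 reads were assigned to genes per library. Libraries are named by group and replicate (WT1 to PCC5), and levels are library-scaled counts (CPM) on a common scale. WT5 stood apart from the other WT rats (r = 0.94 across genes with the median of the other 4, against 0.978 or more for WT1 to WT4), and among the PCC rats PCC4 (r = 0.913), PCC5 (0.943) and PCC2 (0.949) were farther from the others than PCC1 and PCC3 (0.959 and 0.979). The summed level of 10 adrenal cortex genes was 28160 to 56090 CPM in WT, 12930 to 34130 CPM in HYP and 932.5 to 14900 CPM in PCC, with none of them at 0. The summed level of 11 chromaffin genes was 2057 (WT5) to 9822 CPM in WT, 11460 to 16080 CPM in HYP and 19310 to 37730 CPM in PCC. In PCC vs. WT, 10 of 13 listed cortex genes were lower and 11 of 11 listed chromaffin genes higher. Of all genes in that table, 38.5% were lower and 46.7% higher. These marker levels moved with the groups, and their part in the differences below was not tested. In bulk tissue, fewer cells of a type and less RNA per cell cannot be told apart.

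In PCC vs. WT, 33 of the 59 listed genes were lower and 18 higher (edgeR quasi-likelihood test, adjusted *p* under 0.05). The background was 38.5% of the table's genes lower and 46.7% higher, 85.2% in all, against 55.9% and 30.5% of the members. PCC and WT did not overlap in 32 of the 59 (64.7% of the table). In HYP vs. WT, 29 of 49 were lower and 11 higher. Here 32.5% of the table's genes were lower and 39.5% higher (72.1% in all), against 59.2% and 22.4% of the members, and 16 of the 49 did not overlap (54.8% of the table). In PCC vs. HYP, 2 of 20 were lower and 5 higher, while 44.4% of that table was called (22.6% lower and 21.8% higher), and 8 did not overlap (54.3% of the table). The median log2 fold change of the members was -1.44 for PCC vs. WT, where that of all genes tested was 0.44. It was -1.07 for HYP vs. WT, against -0.37 for all genes. For PCC vs. HYP it was -1.11 against 0.43. PCC vs. WT and HYP vs. WT share the 5 WT rats. Leaving out WT1 and WT2 together, an alternative chosen after seeing the data, left 16 higher and 23 lower genes in PCC vs. WT, and 12 lower genes in HYP vs. WT.

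Many calls depended on the setting. The settings were scaling by the summed listed counts (listed-count scaling) or by the library totals, the authors' size factors, DESeq2, other count filters, 1 fit over all 15 samples, and leaving out single rats or WT1 with WT2. Not every gene was tested in each setting, and a call counts as held if it was kept wherever the gene was tested. In HYP vs. WT, for example, *Egr4* was tested in 17 and *Klf8* in 18 of 19 settings. In PCC vs. WT, 20 of the 33 lower calls and 12 of the 18 higher calls held in this sense. Of the 29 lower calls in HYP vs. WT, 7 held (*Btg1*, *Dusp14*, *Egr4*, *Fosl2*, *Klf4*, *Maff* and *Nfil3*) and 7 of the 11 higher ones (*Dusp18*, *Klf5*, *Klf7*, *Klf8*, *Klf11*, the short *Nr3c1* model and *Zfp367*). Listed-count scaling and leaving out WT1 with WT2 each ended 18 calls there. For PCC vs. HYP, the calls of *Tef* and *Zfp367* held in every one of these settings. A replicate block and a 2-fold minimum were not counted among them. With the replicate block, 1 higher and 0 lower genes were called in PCC vs. HYP, so these calls did not both hold there. The changes of *Dusp18* (0.96) and *Klf7* (0.98) in HYP vs. WT were below 2-fold. Many of the losses are given beside the genes below.

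**Figure D1:**
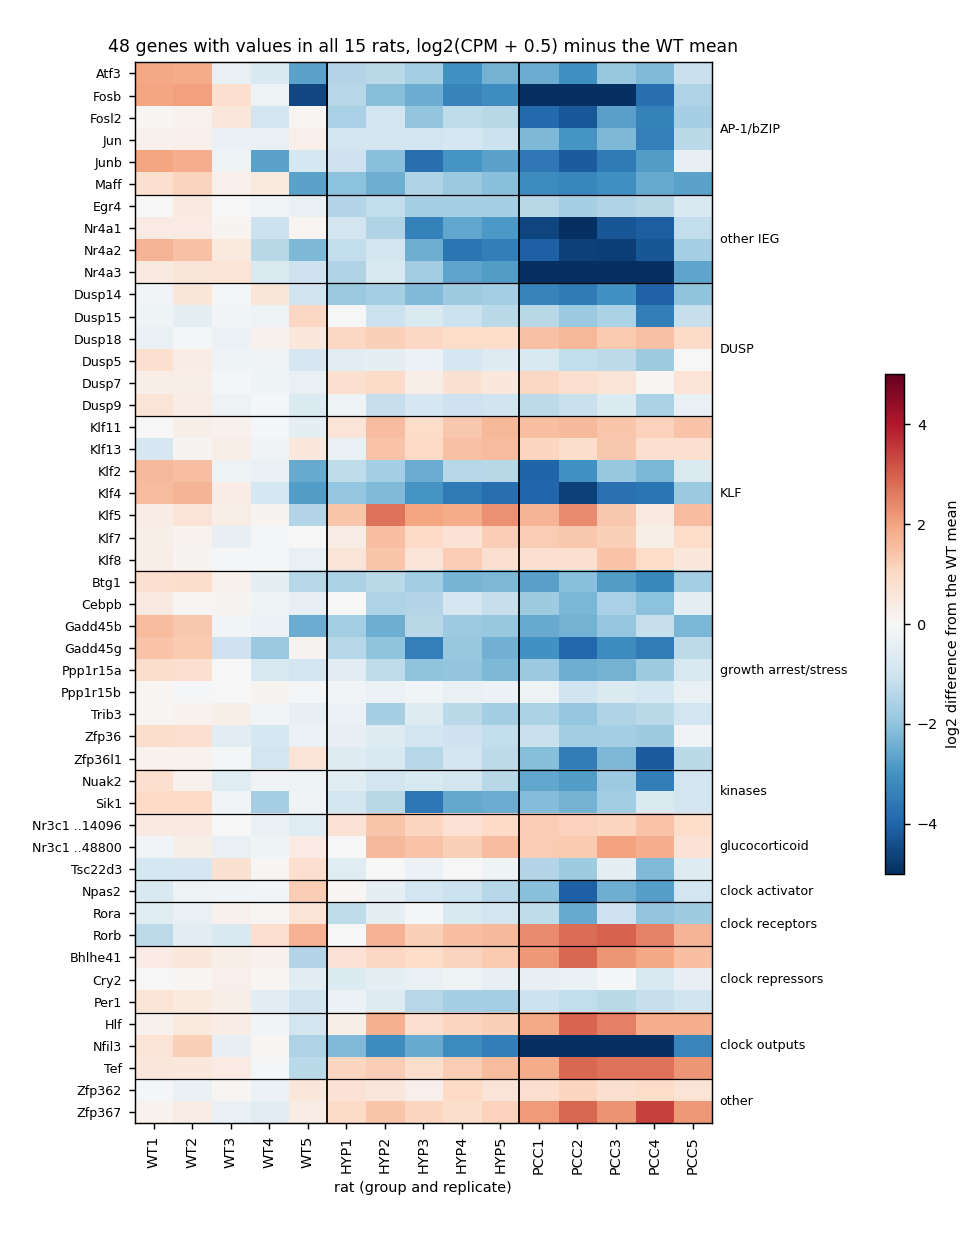
Log2(CPM + 0.5) minus the WT mean for the 48 genes with values in all 15 rats, rows by role and columns by rat, with the colour scale saturating at 5 in either direction. The AP-1, Nr4a and growth arrest rows are blue in most HYP and PCC rats, WT1 and WT2 are the reddest WT columns in them, and PCC5 is the palest PCC column.

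The AP-1 factors, which pair Fos with Jun family proteins on AP-1 sites, were lower in the mutant rats. All 6 listed for PCC vs. WT fell, and 7 of 8 fell in HYP vs. WT (*Jund* missed the threshold, adjusted *p* = 0.0784). Of the whole tables, 38.5% fell in PCC vs. WT and 32.5% in HYP vs. WT. *Jun* (chr5:114011189-114014277, Rn06) stood at 1381, 1452, 964.1, 919 and 1429 CPM in the WT rats, in the order of replicates 1 to 5. In HYP it was 643.1, 641.3, 621, 659.1 and 569.1 CPM, and in PCC 252.3, 154.3, 255.6, 111.2 and 474.4 CPM. The 3 groups did not overlap, and the HYP rats were within a narrow range. *Jun* fell in HYP vs. WT (log2 fold change -1.03 ± 0.17, SE, adjusted *p* = 0.00288), in PCC vs. WT (-2.34 ± 0.37, adjusted *p* = 0.00088) and in PCC vs. HYP (-1.41 ± 0.35, adjusted *p* = 0.0303). The last of these calls was lost on leaving out any single HYP rat, PCC2 or PCC3 (adjusted *p* 0.0544 to 0.0735). With listed-count scaling, HYP vs. WT (-0.56, 0.0541) and PCC vs. HYP (-1.25, 0.0558) were not called.

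*Fosb* (chr1:80214494-80221710), an activity-induced Fos family member, varied far more between rats of the same group. It stood at 354.2, 375.8, 161.3, 75.5 and 3.34 CPM in WT, at 33.6, 20.5, 15.9, 8.54 and 10.1 CPM in HYP and at 1.37, 1.07, 2.2, 6.1 and 31.2 CPM in PCC. WT5 lay below all HYP rats, and PCC5 lay above 4 of them. *Fosb* fell in PCC vs. WT (-4.61 ± 1.26, adjusted *p* = 0.0155) and in HYP vs. WT (-3.52 ± 0.87, adjusted *p* = 0.0169). Without WT1 and WT2, adjusted *p* was 0.0878 and 0.0935.

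*Atf3* (chr13:109817728-109849632), a stress-induced bZIP factor, had 47.6 and 45.3 CPM in WT1 and WT2 but 9.34, 6.95 and 1.49 CPM in WT3, WT4 and WT5. The HYP rats had 4.12, 4.45, 3.35, 1.05 and 1.95 CPM and the PCC rats 1.78, 1.02, 2.85, 2.27 and 5.41 CPM. WT5 was therefore within the range of the mutants. *Atf3* fell in PCC vs. WT (-3.14 ± 0.85, adjusted *p* = 0.0151) and in HYP vs. WT (-2.96 ± 0.79, adjusted *p* = 0.0239). The HYP call was lost without WT1, HYP4 or HYP5 (adjusted *p* 0.0528 to 0.0604), and both were lost without WT1 and WT2 (0.255 for PCC and 0.353 for HYP). With listed-count scaling the HYP value was -2.50 (0.0656).

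*Junb* (1972, 1792, 423.4, 77.4 and 273.5 CPM in WT) was also highest in WT1 and WT2. Its log2 fold change was -3.10 ± 1.00 in PCC vs. WT (adjusted *p* = 0.0338) and -3.14 ± 0.81 in HYP vs. WT (0.0209). Without WT1 and WT2 these were -1.21 (0.514) and -1.33 (0.213). Listed-count scaling also ended both calls (0.0803 and 0.053), library totals the PCC call (0.0589), and so did leaving out WT1, WT2 or any of PCC1 to PCC4 (0.0704 to 0.0791) for PCC and HYP5 for HYP (0.0534). *Fosl2* and *Maff* were listed for all 3 comparisons. *Fosl2* fell in PCC vs. WT (-3.00 ± 0.49, adjusted *p* = 0.00102) with 170.5, 186.3, 244.3, 87.5 and 177.2 CPM in WT against 8.2 to 51.2 CPM in PCC. *Maff*, a small Maf protein without an activation domain, fell in PCC vs. WT (-3.47 ± 0.56, adjusted *p* = 0.001) and in PCC vs. HYP (-1.12 ± 0.23, adjusted *p* = 0.0168), the latter not in 1 fit over all 15 samples (-0.97, 0.256). *Maff* was at 10.7 CPM in WT5 and at 84.7 to 152.2 CPM in the other WT rats. *Fosl1* was listed for HYP vs. WT alone and fell (-1.58 ± 0.35, adjusted *p* = 0.0108), but not with listed-count scaling (0.0766) or without WT1 and WT2 (0.0539).

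The Nr4a orphan receptors are transcription factors without a known endogenous ligand that are induced as fast as AP-1. *Nr4a1* (chr7:142905758-142920216) stood at 1433, 1459, 1201, 511.7 and 1174 CPM in WT, at 570.2, 378.7, 105, 177 and 146.2 CPM in HYP and at 44.1, 21, 56.2, 62.2 and 461.7 CPM in PCC. PCC5 was 7.42-fold above the next PCC rat and within the HYP range. *Nr4a1* fell in PCC vs. WT (-3.21 ± 0.79, adjusted *p* = 0.00932) and in HYP vs. WT (-2.13 ± 0.45, adjusted *p* = 0.00852). The HYP call was lost in 1 fit over all 15 samples (-2.11, 0.0671).

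*Nr4a2* stood at 661.5, 557.9, 286, 77.1 and 42.5 CPM in WT, 85.6, 106.2, 37.3, 15.6 and 17.9 CPM in HYP and 11.5, 7.57, 7.39, 9.98 and 64.8 CPM in PCC. WT4 and WT5 overlapped the HYP rats, and PCC5 lay 5.65-fold above the next PCC rat. *Nr4a2* fell in PCC vs. WT (-4.08 ± 0.93, adjusted *p* = 0.00628). In HYP vs. WT (-2.69 ± 0.77, adjusted *p* = 0.0331) the call was lost without WT1, WT2, WT3, HYP3, HYP4 or HYP5 (adjusted *p* 0.0536 to 0.0798), with listed-count scaling (0.113), with library totals (0.0607), with at least 10 counts in every sample (0.0503), and without WT1 and WT2 (-1.43, 0.289).

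*Nr4a3* (chr5:63781801-63821637) stood at 859.8, 949.4, 993.5, 374.9 and 306.8 CPM in WT, at 220.3, 362.6, 188.7, 99 and 90.3 CPM in HYP and at 11.1, 2.18, 13.2, 12.8 and 98.5 CPM in PCC. It fell in PCC vs. WT (-4.72 ± 0.93, adjusted *p* = 0.0028), where the groups did not overlap, and in HYP vs. WT (-1.91 ± 0.44, adjusted *p* = 0.0119). The HYP call was lost with listed-count scaling (-1.45, 0.0614) and in 1 fit over all 15 samples (0.118). For PCC vs. HYP the log2 fold change of -2.89 ± 0.84 missed the threshold (0.0569). Without PCC5 it was -4.40 (0.00225), and it was also called by DESeq2 (0.00131) and in 1 fit over all 15 samples (0.0316).

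*Egr4*, a zinc finger factor of the Egr family, was listed at low counts. It had 0.711 to 1.66 CPM in the WT rats, at most 0.165 CPM in HYP and at most 0.43 CPM in PCC, with no read in HYP3, HYP4, HYP5 or PCC2. The WT rats did not overlap either mutant group, and no fold is given against groups this close to 0. *Arc*, an activity-regulated cytoskeletal gene, had a log2 fold change of -1.41 ± 0.50 in PCC vs. WT that missed the threshold (adjusted *p* = 0.0516), while DESeq2 called it (0.00974).

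**Figure D2:**
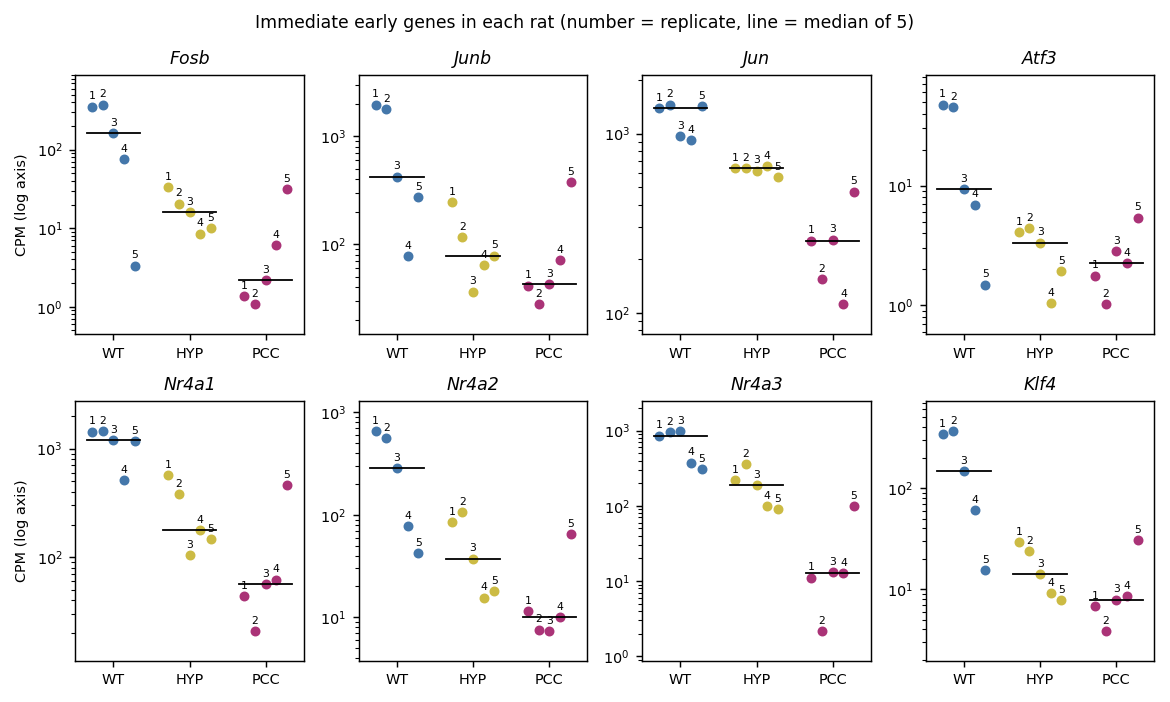
CPM on a log axis of 8 immediate early genes in each rat, numbered by replicate, with the median of 5 rats as a line. WT1 and WT2 are at or near the top of WT in each panel, and PCC5 lies above the other 4 PCC rats in all 8, at 461.7 CPM for *Nr4a1* against 21 to 62.2 CPM.

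The same few animals set the extremes across these genes. Of the 10 AP-1 and other immediate early genes with values in all 15 rats, WT1 and WT2 were both above the other 3 WT rats in 7, all but *Fosl2*, *Jun* and *Nr4a3*. Among all 5492 genes with such values this was so in 28.9%. HYP1 and HYP2 were both above the other HYP rats in 7 of the 10 (10.8% of all genes). PCC5 was the highest PCC rat in 9, all but *Maff* (24.7% of all genes), and PCC2 the lowest in 8 (16.3%). WT5 was the lowest WT rat in 6 (37.7%). WT1 and WT2 also had the lowest cortex levels of WT (28570 and 28160 CPM), whereas PCC5 had the highest of PCC (14900 CPM), so the cortex level was low in the first case and high in the second. Its part was not tested.

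The DUSPs were mixed in direction. In PCC vs. WT, 4 of 10 fell, 2 rose and 4 missed the threshold. In HYP vs. WT, 3 of 8 fell and 2 rose. Of the whole tables, 38.5% fell and 46.7% rose in PCC vs. WT, and 32.5% fell and 39.5% rose in HYP vs. WT. *Dusp14* (chr10:71363688-71383602), the gene with the AP-1 site shown above, fell the most. It stood at 19.3, 32.5, 19.7, 32.3 and 10.2 CPM in WT, 5.39, 6.37, 4.13, 5.75 and 6.14 CPM in HYP and 1.64, 1.36, 2.15, 0.804 and 4.81 CPM in PCC. Neither mutant group overlapped WT, and PCC5 was the highest PCC rat. The log2 fold change was -3.45 ± 0.51 in PCC vs. WT (adjusted *p* = 0.000611) and -2.09 ± 0.29 in HYP vs. WT (0.00115). In PCC vs. HYP it was -1.45 ± 0.43 (0.0589) with all rats and -1.99 (0.0051) without PCC5, and DESeq2 called it (0.00469).

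*Dusp1*, an early-induced phosphatase of p38 and JNK with a CRE and an E-box in its window, was listed for HYP vs. WT only. It stood at 209.6, 167.4, 42.7, 49 and 160.2 CPM in WT and at 52.9, 47.9, 25.5, 38.9 and 41.2 CPM in HYP. WT3 and WT4 overlapped the HYP rats. *Dusp1* fell (-1.67 ± 0.42, adjusted *p* = 0.0182), but not without WT1 and WT2 (-1.10, adjusted *p* = 0.108) or with listed-count scaling (-1.20, 0.126).

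*Dusp18* rose in both mutant groups and did not overlap WT in either. It stood at 13.7, 16.6, 14.4, 20.6 and 25.7 CPM in WT, at 33.9 to 41.2 CPM in HYP and at 34.9 to 56.6 CPM in PCC. Its log2 fold change was 1.36 ± 0.20 in PCC vs. WT (adjusted *p* = 0.000571) and 0.96 ± 0.18 in HYP vs. WT (0.00517). *Dusp23* rose in PCC vs. WT (1.25 ± 0.40, adjusted *p* = 0.0334), and *Dusp7*, which acts on ERK, rose in HYP vs. WT (0.62 ± 0.18, adjusted *p* = 0.0373). Leaving out any of 6 single rats ended the *Dusp23* call (0.0513 to 0.0873), and any of 5 the *Dusp7* call (0.0568 to 0.0962), which the authors' size factors (0.0762) and 1 fit over all 15 samples (0.0609) also ended. *Dusp10* (-2.02 ± 0.55, adjusted *p* = 0.0149) and *Dusp15* (-1.84 ± 0.40, adjusted *p* = 0.00466) fell in PCC vs. WT, and WT5 was by far the highest WT rat for both. *Dusp10* was not called with listed-count scaling (0.0538). *Dusp9* was called lower in both mutant groups from levels of at most 1.88 CPM, and neither call held with either total for scaling (0.0682 to 0.21).

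The Krüppel-like factors split by member. In PCC vs. WT, 6 of 8 rose and 2 fell. In HYP vs. WT, 4 of 7 rose and 2 fell. Of the whole tables, 46.7% rose and 38.5% fell in PCC vs. WT, and 39.5% rose and 32.5% fell in HYP vs. WT. The members that fell were *Klf2* and *Klf4*, which are themselves induced early. *Klf4* (chr5:72283313-72287669) stood at 341.4, 368.1, 146.2, 60.7 and 15.6 CPM in WT, 29, 23.9, 14.2, 9.12 and 7.74 CPM in HYP and 6.79, 3.88, 7.91, 8.51 and 30.8 CPM in PCC. WT5 lay within the HYP range, and PCC5 was 3.62-fold above the next PCC rat. *Klf4* fell in PCC vs. WT (-4.09 ± 0.87, adjusted *p* = 0.00442) and in HYP vs. WT (-3.54 ± 0.74, adjusted *p* = 0.00782). *Klf2*, best known from endothelium, fell in PCC vs. WT (-2.72 ± 0.81, adjusted *p* = 0.0233) and HYP vs. WT (-2.30 ± 0.61, adjusted *p* = 0.024). Both calls were lost without WT1 (0.0558 and 0.0571), without WT1 and WT2 (0.283 and 0.261) and with listed-count scaling (0.0694 and 0.0929), the HYP call also with library totals (0.0506), without HYP2 (0.0581) or HYP3 (0.0511), and the PCC call without PCC2 (0.0574) or PCC3 (0.0514). The summed level of 7 endothelial genes was 502.2 to 631.7 CPM in WT, 344 to 454.6 CPM in HYP and 215.4 to 408.5 CPM in PCC. Single endothelial genes went both ways: 4 of 8 listed were lower and 2 higher in PCC vs. WT. In HYP vs. WT, 5 of 6 were lower and 1 higher. The part of the endothelial level in the fall of *Klf2* was not tested.

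*Klf5*, a factor of proliferating epithelia, rose. It stood at 7.02, 8.66, 6.91, 6.01 and 1.64 CPM in WT, at 14.8, 38, 22.4, 21.1 and 27.9 CPM in HYP and at 18.4, 30.2, 14.4, 7.57 and 16.5 CPM in PCC. The HYP rats were all above WT, while PCC4 was within WT. Its log2 fold change was 1.98 ± 0.38 in HYP vs. WT (adjusted *p* = 0.00494) and 1.47 ± 0.46 in PCC vs. WT (0.0283). The latter call was lost without WT3, WT4 or PCC2 (0.0548 to 0.0759). *Klf11* rose in PCC vs. WT (1.40 ± 0.20, adjusted *p* = 0.0005) and HYP vs. WT (1.22 ± 0.22, adjusted *p* = 0.00414), and *Klf7* rose in PCC (1.03 ± 0.25, adjusted *p* = 0.00826) and HYP (0.98 ± 0.24, adjusted *p* = 0.0157). *Klf13* rose in PCC vs. WT alone (0.97 ± 0.27, adjusted *p* = 0.0163), with 1.12 ± 0.38 in HYP vs. WT (0.0649), where DESeq2 called it (0.0193). Without WT1 and WT2 its PCC call was lost (0.0606). *Klf1* and *Klf8* were called higher at levels of at most 1.6 CPM.

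All 10 growth arrest, stress and mRNA decay genes listed for PCC vs. WT fell, as did 8 of 9 in HYP vs. WT. Of the whole tables, 38.5% fell in PCC vs. WT and 32.5% in HYP vs. WT. *Gadd45g*, which binds Cdk1 and MAP3K4, stood at 936.4, 868.8, 172, 97.3 and 387.1 CPM in WT, at 130.2, 86.9, 32.2, 93.7 and 65.2 CPM in HYP and at 42, 22.3, 39.1, 30.6 and 141 CPM in PCC. WT4 overlapped both mutant groups, and PCC5 was again the highest PCC rat. *Gadd45g* fell in PCC vs. WT (-3.23 ± 0.73, adjusted *p* = 0.00575) and in HYP vs. WT (-2.66 ± 0.59, adjusted *p* = 0.0107, 0.051 without WT1 and WT2).

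For 5 of these 10 genes PCC and WT did not overlap (64.7% of the table). *Btg1*, an antiproliferative cofactor of mRNA deadenylation, fell in PCC vs. WT (-2.68 ± 0.48, adjusted *p* = 0.00163), from 236.8 to 1183 CPM in WT to 68.5 to 195.7 CPM in PCC. *Zfp36l1*, which promotes decay of AU-rich mRNA, fell (-2.48 ± 0.49, adjusted *p* = 0.00293). *Trib3*, a pseudokinase of the integrated stress response, fell (-1.53 ± 0.23, adjusted *p* = 0.000718). *Cebpb* (-1.57 ± 0.34, adjusted *p* = 0.00467) and *Ppp1r15b* (-0.66 ± 0.17, adjusted *p* = 0.0119) fell as well, whereas in *Gadd45b*, *Gadd45g*, *Zfp36*, *Trib1* and *Ppp1r15a* the groups overlapped. With listed-count scaling *Ppp1r15b* (-0.17, 0.96), *Trib1* (-0.25, adjusted *p* of 1) and *Zfp36* (-0.93, 0.216) were not called, and without WT1 and WT2 *Gadd45b* (0.0858), *Trib1* (0.229) and *Zfp36* (0.384) were not. In PCC vs. WT, library totals also ended the calls of *Ppp1r15b* (0.133), *Trib1* (0.353) and *Zfp36* (0.0995). Leaving out any of 7 single rats ended that of *Trib1*, and any of 5 that of *Zfp36*. In HYP vs. WT, *Cebpb* and *Zfp36* each lost the call in 12 of 19 settings. *Trib3* (0.227) and *Zfp36l1* (0.251) lost it with listed-count scaling, and *Gadd45b* without WT1 and WT2 (0.0952). *Btg1* was the gene of this group whose HYP vs. WT call held in every one of the settings listed above.

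*Ppp1r15a*, the stress-induced subunit that directs PP1 to eIF2alpha, has the CRE shown above. It stood at 338.2, 331.2, 186.2, 105.9 and 95.2 CPM in WT, 123.7, 76, 45.8, 46.9 and 38.5 CPM in HYP and 50.9, 33.5, 35.8, 53.1 and 104.1 CPM in PCC. HYP1 and PCC5 reached the lowest WT rats. It fell in PCC vs. WT (-1.99 ± 0.45, adjusted *p* = 0.00622) and in HYP vs. WT (-1.74 ± 0.43, adjusted *p* = 0.0166), the latter neither with listed-count scaling (0.101) nor without WT1 and WT2 (-1.03, 0.103). Its constitutive counterpart *Ppp1r15b* had -0.31 ± 0.12 in HYP vs. WT (0.109), and 0.16 with listed-count scaling.

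The kinases *Sik1* and *Nuak2* fell in both mutant groups. *Sik1*, a cAMP-induced kinase that holds CREB coactivators in the cytoplasm, stood at 790.5, 796.5, 366, 126.4 and 355.8 CPM in WT, 210.9, 152.7, 32.6, 66.8 and 72.2 CPM in HYP and 89.6, 76.6, 120.3, 245.6 and 214.3 CPM in PCC. WT4 overlapped both mutant groups. Its log2 fold change was -2.25 ± 0.56 in HYP vs. WT (adjusted *p* = 0.017) and -1.76 ± 0.51 in PCC vs. WT (0.0213). The PCC call was lost without WT1, PCC2 or PCC3 (0.0511 to 0.0542), with listed-count scaling (-1.28, 0.119), with library totals (0.0632) and without WT1 and WT2 (-0.92, 0.211). The HYP call was lost with listed-count scaling (-1.77, 0.072) and without WT1 and WT2 (-1.48, 0.0989). *Nuak2*, an AMPK-related kinase, fell in PCC vs. WT (-2.27 ± 0.49, adjusted *p* = 0.00459), where the groups did not overlap, and in HYP vs. WT (-1.07 ± 0.27, adjusted *p* = 0.0172). The HYP call was lost with listed-count scaling (-0.62, 0.285), with library totals (-0.91, 0.0614), in 1 fit over all 15 samples (0.105) and without WT1 and WT2 (-0.64, 0.0715). In PCC vs. HYP it had -1.29 ± 0.43 (0.0895) with all rats and -1.83 (0.0087) without PCC5, and DESeq2 called it (0.0177).

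Both glucocorticoid receptor gene models rose in both mutant groups. The main *Nr3c1* model (ENSRNOG00000014096, chr18:31728373-31749647) stood at 33.1, 33.5, 24.5, 19.2 and 15.9 CPM in WT, at 40.4 to 64.8 CPM in HYP and at 46.5 to 66.6 CPM in PCC. Neither mutant group overlapped WT. It rose in PCC vs. WT (1.09 ± 0.24, adjusted *p* = 0.00555) and in HYP vs. WT (0.90 ± 0.23, adjusted *p* = 0.0186), the latter only with WT4 kept (0.0502 without it). The short model (ENSRNOG00000048800, chr18:32669427-32670665) rose by 1.54 ± 0.29 (0.00233) and 1.27 ± 0.31 (0.0173), and how reads were divided between the models is uncertain. The mineralocorticoid receptor gene *Nr3c2* rose in PCC vs. WT (0.95 ± 0.28, adjusted *p* = 0.0236), a call lost without WT1, WT4, PCC2 or PCC3 (0.0524 to 0.0629) and without WT1 and WT2 (0.121).

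The targets described here were called in different comparisons or not at all, so the calls cannot show whether they shared a direction. *Fkbp5*, a cochaperone that dampens Nr3c1, stood at 121.5, 188.3, 149.5, 156.7 and 77.2 CPM in WT and at 208.9, 238.4, 247.2, 287.2 and 323.9 CPM in HYP, without overlap. It rose in HYP vs. WT (0.86 ± 0.22, adjusted *p* = 0.0202, 0.0507 without WT1). *Tsc22d3*, which encodes the anti-inflammatory GILZ, was listed under a 648-base model on chromosome X (111942102 to 111942749) and stood at 4.9, 5.04, 16.4, 9.83 and 17.1 CPM in WT and 3.05, 2.38, 6.74, 1.66 and 5.8 CPM in PCC, with overlap. It fell in PCC vs. WT (-1.44 ± 0.46, adjusted *p* = 0.0335), a call lost without WT3, WT4, WT5, PCC1, PCC2 or PCC4 (0.0566 to 0.0858), with listed-count scaling (-0.92, 0.247) and with library totals (-1.12, 0.118). *Sgk1*, a kinase that raises sodium uptake, stood at 60.8, 56.1, 49.1, 47.4 and 43.4 CPM in HYP and 74.1, 109.2, 77.5, 71.7 and 76.7 CPM in PCC. The groups did not overlap, but its log2 fold change of 0.57 ± 0.17 missed the threshold (0.0615), which it passed with library totals (0.81, 0.0268) and the authors' size factors (0.68, 0.0317). In the same comparison, *Tsc22d3* had -1.12 ± 0.38 and was not called (0.0879), while DESeq2 called it (0.0142).

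Among the clock activators, *Npas2* (chr9:45901741-46081880) was listed and fell in PCC vs. WT. It stood at 51.4, 73.2, 77.2, 79.9 and 212.7 CPM in WT, at 92.2, 63.1, 44, 41 and 31.7 CPM in HYP and at 20.1, 4.61, 15.4, 12.4 and 45 CPM in PCC. WT5 was 2.66-fold above the next WT rat, and PCC5 was 2.23-fold above the next PCC rat. The log2 fold change was -2.34 ± 0.54 in PCC vs. WT (adjusted *p* = 0.00645), where the groups did not overlap. In PCC vs. HYP it was -1.57 ± 0.51 (0.0786) with all rats and -2.15 (0.0124) without PCC5, and DESeq2 called it (0.01). The ROR nuclear receptors, which activate *Arntl* and *Npas2* through RORE elements, went apart. *Rora* fell in PCC vs. WT (-1.78 ± 0.33, adjusted *p* = 0.00185), from 11.9 to 29.4 CPM in WT to 2.77 to 8.84 CPM in PCC, without overlap. *Rorb*, a neural member, rose (2.38 ± 0.67, adjusted *p* = 0.0185), from 0.24, 0.756, 0.58, 2.75 and 5.55 CPM in WT to 8.93, 12, 13.5, 9.55 and 5.46 CPM in PCC. PCC5 lay just below WT5, and the call was lost without WT1 and WT2 (1.78, 0.058).

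Among the clock repressors, *Bhlhe41* (chr4:180232382-180234804) was higher at each stage. It stood at 3.99, 4.38, 3.64, 3.44 and 0.711 CPM in WT, 5.07, 6.37, 5.93, 6.85 and 7.74 CPM in HYP and 14.8, 23.9, 15.2, 12.5 and 9.02 CPM in PCC, and none of the 3 groups overlapped. The log2 fold change was 2.16 ± 0.45 in PCC vs. WT (adjusted *p* = 0.00365) and 1.14 ± 0.27 in PCC vs. HYP (0.0264). The call for PCC vs. HYP was lost without HYP1, HYP2, HYP3, HYP4, PCC2 or PCC3 (0.054 to 0.0768). HYP and WT, a comparison whose table does not list the gene, differed by 1.02 on the log2 scale (exact permutation test, two-sided, unadjusted *p* = 0.00794, the smallest that 5 against 5 can give).

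*Per2* and *Ciart* were listed for PCC vs. HYP only and rose. *Per2*, with the D-box shown above, stood at 46.5, 37.2, 51.1, 42.4 and 36 CPM in HYP and 111.4, 132.4, 135.7, 69.7 and 59.5 CPM in PCC, without overlap (1.16 ± 0.25, adjusted *p* = 0.0185, 0.0616 without HYP4 and 0.052 without HYP5). *Ciart*, with 3 E-boxes, stood at 0.761, 0.933, 1.16, 1.1 and 0.898 CPM in HYP and 3.87, 10.1, 4.91, 2.65 and 1.12 CPM in PCC. PCC5 fell within HYP, and PCC2 was the highest PCC rat. *Ciart* rose (2.12 ± 0.50, adjusted *p* = 0.0276), a call lost without any single HYP rat, PCC2 or PCC3 (0.0554 to 0.072). *Cry1*, listed for the same comparison, had 0.45 ± 0.22 (0.369).

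*Per1*, which is both an immediate early and a glucocorticoid-induced gene, was lower in both mutant groups than in WT. It stood at 619.4, 529.5, 482.6, 267.4 and 192 CPM in WT, 311.8, 243.5, 141.4, 120 and 118.4 CPM in HYP and 180.8, 161.3, 149.5, 170.4 and 189.5 CPM in PCC. PCC did not overlap WT, HYP did. *Per1* fell in PCC vs. WT (-1.35 ± 0.32, adjusted *p* = 0.0073), but not with listed-count scaling (-0.88, 0.0957). It fell in HYP vs. WT (-1.22 ± 0.36, adjusted *p* = 0.0387), but not without WT1, WT2, WT3, HYP3, HYP4 or HYP5 (0.0714 to 0.0975), with listed-count scaling (-0.75, 0.461), with library totals (-1.08, 0.119), with at least 10 counts in every sample (0.0722) or without WT1 and WT2 (-0.82, 0.247). *Per3* stood at 96.6, 72.9, 40.1, 36.8 and 10.8 CPM in WT and 105.2, 309, 162.8, 99.5 and 89.6 CPM in PCC. Its log2 fold change of 1.52 ± 0.55 missed the threshold (0.0556), with 0.0303 without WT1 and 0.0491 without PCC5. Listed-count scaling (2.02, 0.0247), library totals (1.80, 0.0387) and DESeq2 (0.0215) called it. *Cry2* had -0.52 ± 0.16 in HYP vs. WT (adjusted *p* = 0.0465), a call lost on leaving out any of 9 single rats (0.0546 to 0.115) and with each other scaling in edgeR (0.0502 to 1). In PCC vs. WT it had -0.46 ± 0.19 (0.0986), which turned to 0.036 with listed-count scaling.

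The clock output factors with opposite actions on D-boxes moved in opposite directions. *Nfil3*, the repressor, had the largest log2 fold change among the 68 genes in any of their listed comparisons. *Nfil3* (chr17:12261102-12276315) stood at 1445, 2075, 671.3, 964.5 and 309.6 CPM in WT, 196.3, 101.7, 158.2, 100.2 and 81.2 CPM in HYP and 9.8, 5.63, 6.36, 14.1 and 91.5 CPM in PCC. Neither mutant group overlapped WT, and PCC5 lay 6.47-fold above the next PCC rat and within HYP. The log2 fold change was -5.49 ± 0.96 in PCC vs. WT (adjusted *p* = 0.00151) and -3.16 ± 0.46 in HYP vs. WT (0.00137). In PCC vs. HYP it was -2.40 ± 0.74 (0.0671) with all rats and -3.94 (0.000412) without PCC5, and DESeq2 called it (0.00338).

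*Tef*, a PAR-bZIP activator with an E-box in its window, rose at each step. *Tef* (chr7:123043503-123058604) stood at 48, 46.3, 42.5, 29.7 and 12.2 CPM in WT, 69.2, 75.3, 59.5, 77.9 and 98 CPM in HYP and 116.5, 238.7, 214.9, 215.6 and 152.5 CPM in PCC. None of the 3 groups overlapped. It rose in PCC vs. WT (2.34 ± 0.38, adjusted *p* = 0.000956), in HYP vs. WT (1.03 ± 0.30, adjusted *p* = 0.0373) and in PCC vs. HYP (1.20 ± 0.22, adjusted *p* = 0.00986). The HYP vs. WT call was lost without WT3, WT4, HYP2 or HYP5 (0.0544 to 0.0906), with library totals (1.19, 0.0541) and with the authors' size factors (0.97, 0.0676). *Hlf*, of the same family, stood at 0.914, 1.21, 1.11, 0.626 and 0.142 CPM in WT, 1.01, 3.73, 1.68, 2.09 and 2.3 CPM in HYP and 4.05, 8.83, 6.46, 3.83 and 3.78 CPM in PCC. It rose in PCC vs. WT (2.68 ± 0.49, adjusted *p* = 0.0019), without overlap. *Hlf* missed the threshold in HYP vs. WT (1.35 ± 0.45, adjusted *p* = 0.06, 0.031 without HYP1, 0.0178 by DESeq2) and in PCC vs. HYP (1.21 ± 0.38, adjusted *p* = 0.0738).

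**Figure D3:**
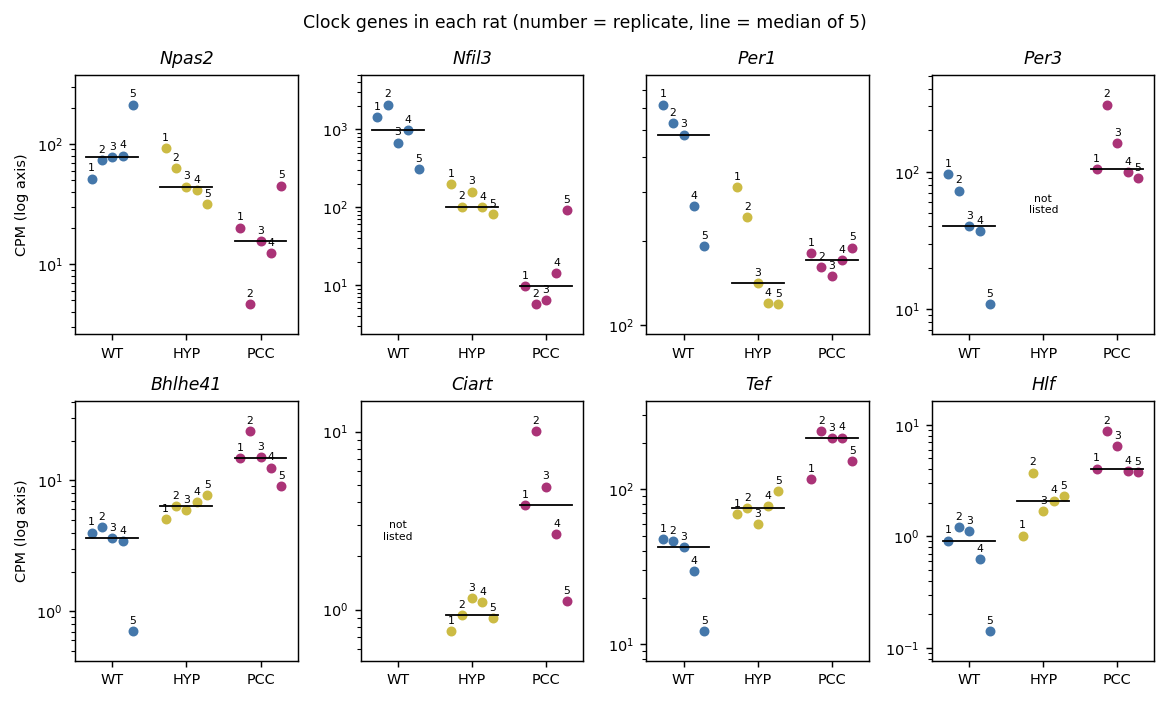
CPM on a log axis of 8 clock genes in each rat, numbered by replicate, with the median of 5 rats as a line; *Per3* has no HYP and *Ciart* no WT values. Where *Npas2* is highest (WT5 at 212.7 CPM, HYP1 at 92.2 CPM, PCC5 at 45 CPM), *Hlf* and *Bhlhe41* are the lowest of the group.

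The same rats stood at the extremes of several clock genes. WT5 was the highest WT rat for *Npas2*, *Rora* and *Rorb* and the lowest for *Per1*, *Per3*, *Cry2*, *Bhlhe41*, *Tef*, *Hlf* and *Nfil3*. HYP1 was the highest HYP rat for *Npas2*, *Nfil3* and *Per1* and the lowest for *Bhlhe41*, *Hlf*, *Ciart*, *Cry2*, *Rora* and *Rorb*. PCC5 was the highest PCC rat for *Npas2*, *Nfil3*, *Per1* and *Cry1* and the lowest for *Per2*, *Per3*, *Bhlhe41*, *Ciart*, *Hlf* and *Rorb*. PCC2 was nearly its mirror image, highest for *Per3*, *Bhlhe41*, *Ciart*, *Tef* and *Hlf* and lowest for *Npas2*, *Nfil3*, *Cry1* and *Rora*. In all 3 groups the rat with the highest *Npas2* thus had the lowest *Hlf* and *Bhlhe41*. These are orders within 5 animals and were not tested. Over all 5492 genes, WT5 was the highest WT rat in 30.6% and the lowest in 37.7%, HYP1 was the highest HYP rat in 26.4% and the lowest in 25.1%, and PCC5 was the highest PCC rat in 24.7% and the lowest in 24.3%. WT5 also had the lowest chromaffin level (2057 CPM) and, after WT4, the highest cortex level of WT (55420 CPM). The cortex level of PCC5 was 14900 CPM and that of PCC2 2956 CPM. The part of these levels was not tested.

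Zinc finger genes *Zfp362*, *Zfp365*, *Zfp366* and *Zfp367* match the rule by the letters of their symbols and do not belong to the Zfp36 family. *Zfp367*, a factor tied to the cell cycle, rose in PCC vs. WT (2.80 ± 0.35, adjusted *p* = 0.000316), HYP vs. WT (1.13 ± 0.26, adjusted *p* = 0.012) and PCC vs. HYP (1.52 ± 0.27, adjusted *p* = 0.00943). It stood at 1.56 to 3.38 CPM in WT, 4.99 to 7.25 CPM in HYP and 12.5 to 31 CPM in PCC, and the groups did not overlap.

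**Figure D4:**
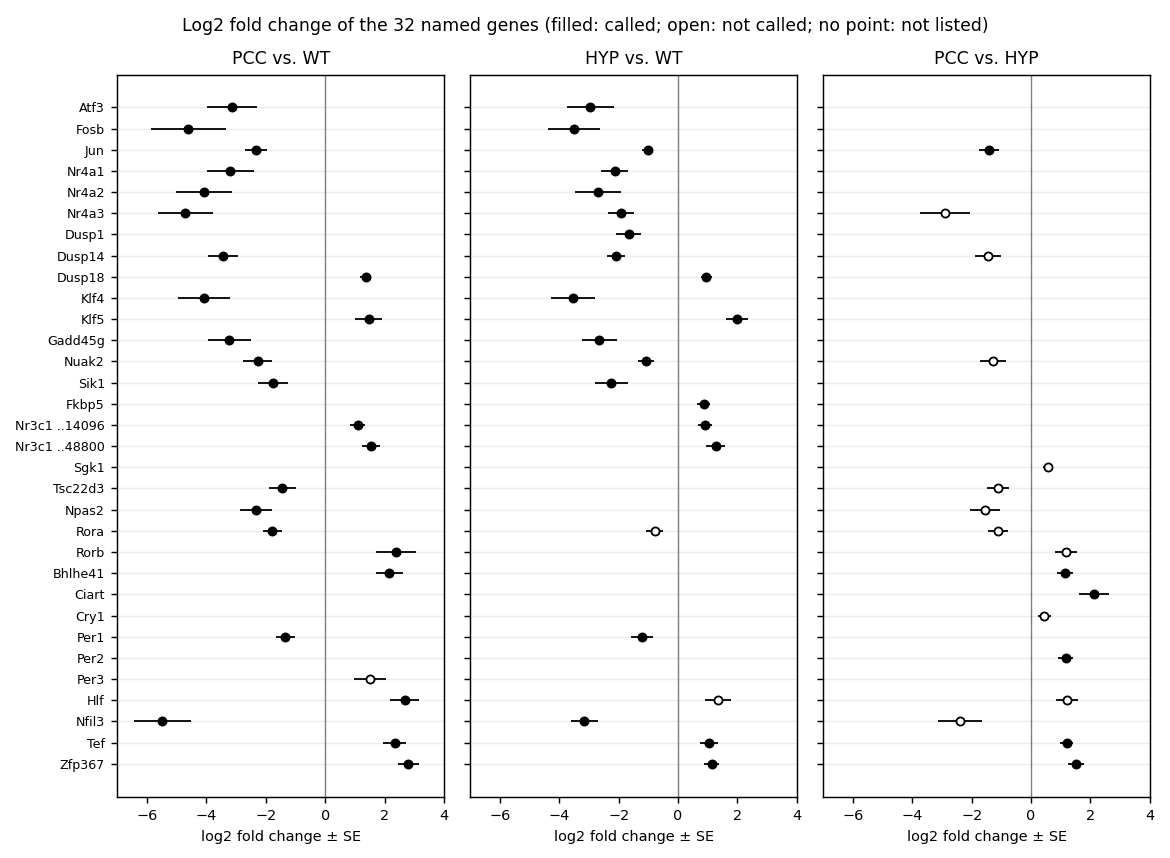
Log2 fold change with its standard error for the 32 genes named by the rule (filled, adjusted *p* under 0.05; open, not called; no point, not listed), in 3 panels by comparison. *Nfil3* lies farthest to the left at -5.49 in PCC vs. WT, and *Zfp367*, *Hlf*, *Rorb* and *Tef* farthest to the right.

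Genes with values in all 15 rats could also be compared where the table of a comparison leaves them out. For PCC vs. HYP, 32 members were tested in this way, 2 of them with an unadjusted *p* under 0.05 (two-sided exact permutation tests, smallest possible *p* = 0.0079). Among all 2418 genes tested in the same way, 14.4% were under it, so the members' share was below the background. These were *Dusp15*, with a difference of -1.03 on the log2 scale (exact *p* = 0.0159), and *Dusp18*, with 0.35 (exact *p* = 0.0317). *Fosb* differed by -1.88 (exact *p* = 0.0714), *Nr4a1* by -1.71 (exact *p* = 0.103), *Nr4a2* by -1.52 (exact *p* = 0.0873) and *Per1* by -0.02 (exact *p* = 0.921, and 0.10 with library totals). For HYP vs. WT, 4 members were tested, 1 of them under 0.05 (18.8% of 1639 genes). Beside *Bhlhe41*, *Npas2* differed by -0.77 (exact *p* = 0.103), *Rorb* by 1.20 (exact *p* = 0.0873) and *Tsc22d3* by -0.23 (exact *p* = 0.54), all with overlapping groups.

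The spread between rats of a group was wide for these genes. The standard deviation of log2(CPM + 0.5) over 5 rats had a median of 1.17 in WT, 0.74 in HYP and 1.15 in PCC over the 10 immediate early genes. For all 48 members it was 0.63, 0.43 and 0.62, and for all 5492 genes 0.35, 0.30 and 0.42. *Fosb* was the most variable in WT (2.72), and *Jun* among the least variable in HYP (0.083).

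**Figure D5:**
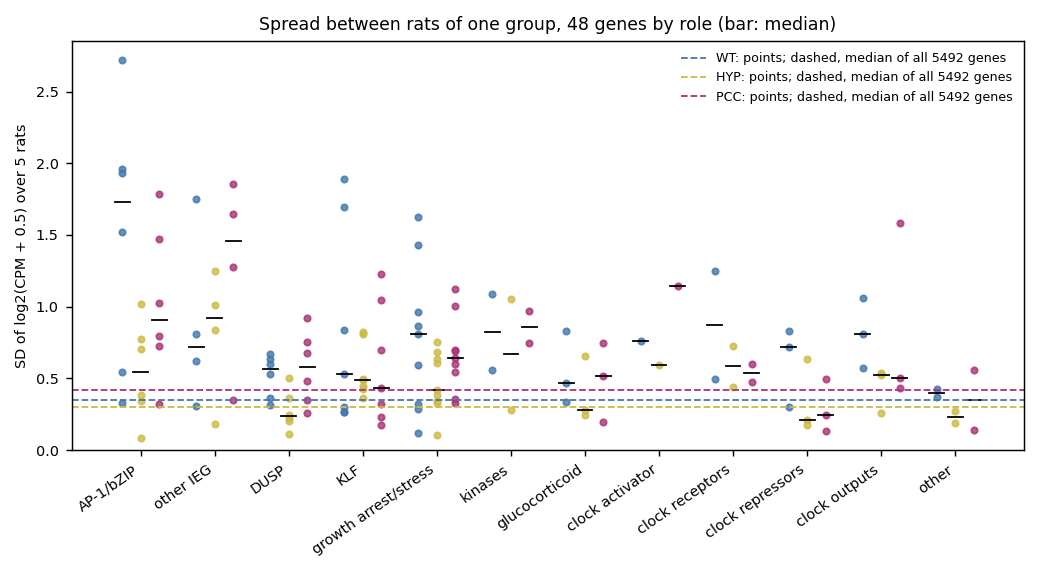
Standard deviation of log2(CPM + 0.5) over the 5 rats of a group for each of the 48 genes by role, with a bar at each median and a dashed line at the median over all 5492 genes. The AP-1 genes in WT (median 1.73) and the other immediate early genes in PCC (1.46) lie well above the dashed lines at 0.35 and 0.42.

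Other genes of the same pathways, from lists without members, were checked in the same fits. Of the whole tables, 38.5% of genes were lower and 46.7% higher in PCC vs. WT. These shares were 32.5% and 39.5% in HYP vs. WT, and 22.6% and 21.8% in PCC vs. HYP. Of genes upstream of the immediate early response, 6 of 11 listed fell and 3 rose in PCC vs. WT, and the values of *Atf1* and *Map2k1* among the 6 turned above 0 with listed-count scaling. *Crem*, a CRE-binding factor whose short product ICER represses cAMP-induced genes, fell in PCC vs. WT (-4.23 ± 0.47, adjusted *p* = 0.000159), HYP vs. WT (-2.02 ± 0.33, adjusted *p* = 0.00232) and PCC vs. HYP (-2.29 ± 0.37, adjusted *p* = 0.00621). *Mapk3*, which encodes ERK1, rose in PCC vs. WT (1.14 ± 0.19, adjusted *p* = 0.00114), as did the ERK pathway inhibitor gene *Spred2* (1.63 ± 0.25, adjusted *p* = 0.000784). The PCC vs. WT falls of *Crtc3* and *Spry1* were lost in 8 of 18 and 8 of 19 settings. In HYP vs. WT, 2 of 6 fell and 1 rose, and in PCC vs. HYP 2 of 5 fell and 3 rose. Of these PCC vs. HYP calls, that of *Crem* held in every one of the settings listed above. *Spred2* lost its call in 9 of 18 settings, *Rps6ka5* in 8, *Spry4* in 7 and *Rps6ka2* in 2. The list of clock-associated genes also held *Tnfrsf12a*, a cytokine receptor gene that is not a clock component. It fell in PCC vs. WT (-1.50 ± 0.32) and HYP vs. WT (-0.89 ± 0.27). With it included, 4 of 7 fell and 2 rose in PCC vs. WT, and 3 of 4 fell in HYP vs. WT. None of 4 passed in PCC vs. HYP (edgeR), where 3 had an unadjusted *p* under 0.05 and DESeq2 called 2. The HYP vs. WT calls of *Nampt*, *Sirt1* and *Tnfrsf12a* were lost in 3, 7 and 11 of 19 settings. In PCC vs. WT, the call of *Tipin*, which rose, was lost in 8 of 19 and that of *Usp2*, which fell, in 3. *Nampt*, an E-box-driven gene of NAD synthesis, fell in PCC vs. WT (-1.29 ± 0.25, adjusted *p* = 0.00268), and *Wee1*, a clock-controlled mitotic kinase, rose (1.21 ± 0.31, adjusted *p* = 0.0114). Of further glucocorticoid-regulated genes, 5 of 8 fell and 1 rose in PCC vs. WT, 2 of 6 fell in HYP vs. WT, and 2 of 4 fell and 1 rose in PCC vs. HYP. In PCC vs. WT, *Mt2A* lost its call in 12 of 19 settings, *Errfi1* in 9 and *Lcn2*, which rose, in 3. In HYP vs. WT, *Sult1a1* lost its call in 7 of 19. In PCC vs. HYP, *Lcn2* lost its call in 7 of 18 and *Hsd11b2* in 6. *Sult1a1* fell in PCC vs. WT (-3.00 ± 0.42, adjusted *p* = 0.000516), and *Ddit4*, a stress-induced mTORC1 inhibitor, fell too (-2.08 ± 0.57, adjusted *p* = 0.0165), but not with listed-count scaling (0.069) or without WT1 and WT2 (0.119).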

How the data were processed

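RNA-seq of 15 rat adrenal medulla samples (5 WT, 5 HYP, 5 PCC), grouped by genotype, tissue and age as the labels give them, was analysed from 3 tables that list only the genes the authors called in each comparison. RNA (RIN above 6.5 in the study's methods) was poly-A selected and sequenced paired-end. Reads were mapped to Rn06 with HISAT2, and genes were counted with featureCounts (versions 2.0.5 and 1.5.0-p3 in the submitters' processing notes). The deposited tables give whole read counts for each gene beside FPKM values. For the normalized signal columns, the authors had divided each count by the sample's DESeq2 size factor. The log2 fold changes and p-values of the authors' DESeq2 comparisons were not used as results. Only the last gene's adjusted and raw p-value, as deposited, served to recover how many genes were tested (18790 in PCC vs. WT, 18057 in HYP vs. WT, 17454 in PCC vs. HYP). Strand was not given in the sources used here, so reads of overlapping or antisense genes cannot be told apart.

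Counts were compared pairwise with edgeR 4.0.16 (R 4.3.3, limma 3.58.1): TMM over the listed genes, filterByExpr, glmQLFit and glmQLFTest. *p*-values were Benjamini-Hochberg adjusted over this recovered number, with unlisted genes taken to rank last, and called under 0.05. filterByExpr kept every listed member. The standard error is the log2 fold change divided by the square root of F. CPM used TMM over the 5492 genes with values in all 15 rats and library totals recovered from count, FPKM and gene length (genes of at least 20 counts), with a pseudocount of 0.5 on the log2 scale. Members without a row in a comparison's table were compared by two-sided exact permutation tests. Other steps ran in Python 3.11.15 (pandas 2.3.3, numpy 2.4.6, scipy 1.17.1), and figures in matplotlib 3.10.9. The scripts were tested on simulated data.

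The members, role groups and pathway and marker lists were chosen with earlier results of these data known. Genes with full values were, by rule, a set of known immediate early, glucocorticoid and clock genes where listed, and in each role and comparison the called member with the largest log2 fold change in each direction at 1 CPM or more on average. Other members were named after their values were seen. Alternatives were other scalings (listed or library totals, the authors' size factors), DESeq2 1.42.0, other count filters, adjustment over the table alone, a replicate block, 1 fit over all 15 samples, a 2-fold minimum and leaving out rats. The p-values set the difference between groups against the spread between these rats. Those of edgeR were computed on genes that the authors had already called in the same rats. The labels do not say which PCC samples were advanced, and that split was not used here.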

Additional observations from a re-analysis of the deposited data

Results flagged for a closer look

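In groups of 5 rats, 11 values lay apart from the other 4 by a Dixon gap test on log2(CPM + 0.5), which chance gives in about 1 in 20 groups. These were 7 of 64 genes in WT (10.9%), 1 of 57 in HYP (1.75%) and 3 of 63 in PCC (4.76%). WT5 accounted for 6. It was low for *Maff* (10.7 CPM, others 84.7 to 152.2), *Bhlhe41* (0.711 CPM, others 3.44 to 4.38), *Klf5* (1.64 CPM, others 6.01 to 8.66) and *Jund* (193.5 CPM, others 366.3 to 387.8). It was high for *Dusp15* (249.4 CPM, others 88.2 to 109.6) and *Dusp10* (31.6 CPM, others 7.89 to 11.8). WT4 was low for *Nr4a1* (511.7 CPM, others 1174 to 1459). HYP1 was low for the short *Nr3c1* model ENSRNOG00000048800 (4.18 CPM, others 9.93 to 13.6). PCC5 was high for *Nr4a2* (64.8 CPM, others 7.39 to 11.5) and, at very low counts, *Egr4* (0.43 CPM, others 0 to 0.0946). PCC2 was high for *Sgk1* (109.2 CPM, others 71.7 to 77.5). On CPM without the log scale, 13 genes in PCC stood apart instead of 3.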

How the results depend on the processing

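The counts for PCC vs. WT stayed within 1.5 times of 18 higher and 33 lower genes under every alternative run, but scaling by the summed listed counts (20 higher and 23 lower) or to the library totals (20 and 26) shifted the split towards higher. These scalings moved the median of all genes by 0.50 and 0.29 (log2) in PCC vs. WT, 0.46 and 0.19 in HYP vs. WT and 0.15 and 0.22 in PCC vs. HYP. The authors' size factors moved it by 0.11 and DESeq2 by -0.17 in PCC vs. HYP. In HYP vs. WT, 29 genes were lower in the fit reported, but 11 (with 14 higher) when scaled to listed counts, 21 (with 12 higher) when scaled to library totals, 19 of 44 tested in 1 fit over all 15 samples, and 12 of 48 without WT1 and WT2 (chosen after seeing the data). The 11 higher genes became 6 with a 2-fold minimum. In PCC vs. HYP, the 2 lower genes became 1 scaled to listed counts, 11 with DESeq2 and 11 adjusted over the table alone, and the 5 higher genes became 8 over the table alone and 3 of 16 tested in 1 fit over all 15 samples. With the replicate block, 1 higher and 0 lower genes were called in PCC vs. HYP, 19 and 25 in PCC vs. WT, and 11 and 26 in HYP vs. WT. In the labels, same-numbered rats share only a number. Correlations of their deviations were -0.24 to 0.24, and 2 to 4 of 10 rats in each comparison were closest to their own number. Whether the numbers mark anything shared between groups was not tested. Leaving out 1 rat gave 14 to 18 higher and 26 to 35 lower genes in PCC vs. WT, 8 to 13 and 21 to 31 in HYP vs. WT, and 2 to 6 and 1 to 9 in PCC vs. HYP, where 9 were lower without PCC5. Apart from the settings' own construction (fewer samples or genes, another adjustment), the cause was not tested. Some values near 0 changed sign. With library totals, the PCC minus HYP differences of *Per1* (0.10), *Klf13* (0.068), *Klf8* (0.013) and *Dusp7* (0.11) turned above 0. With listed-count scaling the same was so for *Cry2* (0.036) and *Elk4* (0.071) in PCC vs. WT, for *Ppp1r15b* (0.16), *Srf* (0.092) and *Map2k2* (0.059) in HYP vs. WT, and for *Atf1* (0.11) and *Map2k1* (0.059) in PCC vs. WT, which had been called lower. No other log2 fold change of a member or pathway gene changed direction. Of these values under alternatives, 2993 kept their direction and side of the threshold, 408 lost it and 177 gained it. Counting error at low levels limits *Egr4*, *Dusp2*, *Dusp9*, *Klf1* and *Klf8*.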

Other observations

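The levels of other marker lists were as follows. The summed level of 3 fibroblast and capsule genes was 31.1 to 59.7 CPM in WT, 89.7 to 120.8 CPM in HYP and 56.7 to 170 CPM in PCC. That of 6 sustentacular and Schwann genes was 56.2 to 108.4 CPM in WT, 73.7 to 106.8 CPM in HYP and 52 to 92.7 CPM in PCC. Singly, 4 of these 6 were higher and 2 lower in PCC vs. WT (46.7% and 38.5% of the table). In HYP vs. WT, 3 of 5 listed were higher and 1 lower (39.5% and 32.5% of the table). Of 14 leukocyte and macrophage genes only 2 were in the tables, at 32.5 to 39.8 CPM in WT, 50.6 to 55.6 CPM in HYP and 10.4 (PCC4) to 61 CPM in PCC.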
